A study of Mus musculus with 96 samples.

Results

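Slc22 and Slco are 2 gene families of organic solute carriers of the cell membrane. Among the 54833 features counted in liver, kidney, forebrain and cerebellum of control and sleep-deprived mice, 40 carried a symbol of the form Slc22a or Slco followed by the number of the member, 25 of them Slc22 and 15 Slco. All 40 rows are accounted for here, and symbols and positions came from the GENCODE M21 annotation on the GRCm38 build. The mice were male wild-type C57BL/6 animals of 6 to 8 weeks with food and water at all times. Nothing was done to the control mice (CON), whereas the sleep-deprived mice (SD) had to walk for 10 h of their resting phase in a drum that turned slowly, so that forced locomotion and loss of sleep came together in every SD animal. Tissue was taken in constant darkness at circadian times CT4, CT8, CT12, CT16, CT20 and CT24, with 2 libraries of total RNA for each tissue, condition and time, 96 in all. Per the study's methods, sampling came after the deprivation had ended. In SD mice circadian time and hours since deprivation therefore cannot be told apart. The study calls the 2 libraries of a group biological repeats, and the labels do not name the animals behind them, so p-values measure the spread between libraries. In fits that average over the times or follow a 24 h course, that spread also holds differences between times that the fit leaves out.

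Slc22 proteins exchange small organic cations, zwitterions such as carnitine, and organic anions including urate, whereas Slco proteins (the organic anion transporting polypeptides) take up larger amphipathic anions such as bile acids, bilirubin, steroid conjugates, thyroid hormones and prostaglandins. In the liver they stand mainly at the sinusoidal side of hepatocytes, in the kidney at either side of the proximal tubule cell, and in the brain at the endothelium, choroid plexus and meninges. Together they set much of the entry of drugs and metabolites into the organs that clear them.

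Libraries held between 24760295 and 58486579 counts. The tissues carried their own markers: the summed level of 6 hepatocyte genes had a median of 110200 TPM in control liver, 7 proximal tubule genes had a median of 46020 TPM in control kidney, and 5 cerebellar genes had a median of 2822 TPM in control cerebellum against 22.9 TPM in control forebrain. TPM, the count per length of exon scaled to the same sum in every library, was used to compare genes with each other, and CPM, the count scaled to the library total, to compare libraries. For 20 of the 24 kidney libraries the listed condition or time differed from the title, and the titles, which the columns of the count table also bear, were used. Every kidney result by condition or time, and the comparison of SD effects in liver and kidney, rests on that choice. The control cerebellum library CT8 replicate 1 stood apart, and results that rest on it are given without it.

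Regulatory sequence was looked at first. RefSeq promoters on GRCm38.p6 were matched by symbol for 35 of the 40 members, and Slc22a7, Slc22a21, Slco3a1 and Slco5a1 were among those without an entry. Motifs were searched on both strands of the 250 bases before the start, and in no member did they overlap each other. Counting a gene once if any of its promoters held the motif, the nuclear receptor core AGGTCA lay in 5 members (14.3%, against 15.8% of all 27025 genes with a window of the same length), the E-box CACGTG in 2 (5.71%, against 6.86%) and the D-box TTATGTAA in 1 (2.86%, against 0.977%). Slco1b2, Slco1a1 and Slc22a27 are shown because they hold AGGTCA and differed in liver between the conditions described later, and Slc22a4 because it holds CACGTG and had a 24 h term in kidney. They were chosen after these values were seen. Slc22a14 and Slco4a1 also hold AGGTCA and were not called between SD and CON in liver (log2 fold changes -0.06 and -0.01). Slco2b1 and Slc22a23 were called there and do not hold it. Capitals mark the motif on either strand, and each sequence runs 5′ to 3′ on the strand of its gene up to the last base before the start.
Slco1b2, chr6:141629268-141629517, plus strand, motif at -81 to -76 from the start: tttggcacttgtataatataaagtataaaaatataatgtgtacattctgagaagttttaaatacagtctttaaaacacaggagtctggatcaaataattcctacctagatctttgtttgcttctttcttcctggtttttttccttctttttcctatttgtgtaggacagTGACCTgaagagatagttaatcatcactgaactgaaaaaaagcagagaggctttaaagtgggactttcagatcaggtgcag
Slco1a1, chr6:141946963-141947212, minus strand, motifs at -134 to -129 and at -24 to -19: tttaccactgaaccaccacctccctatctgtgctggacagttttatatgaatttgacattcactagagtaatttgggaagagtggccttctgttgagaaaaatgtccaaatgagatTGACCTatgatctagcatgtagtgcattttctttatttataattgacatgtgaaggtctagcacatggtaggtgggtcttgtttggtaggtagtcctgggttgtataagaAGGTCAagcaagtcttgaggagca
Slc22a27, chr19:7966028-7966277, minus strand, motif at -119 to -114: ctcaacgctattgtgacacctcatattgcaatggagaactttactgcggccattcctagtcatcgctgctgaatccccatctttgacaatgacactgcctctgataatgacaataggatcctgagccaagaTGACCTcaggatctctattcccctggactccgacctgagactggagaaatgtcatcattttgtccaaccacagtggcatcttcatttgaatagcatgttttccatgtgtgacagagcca
Slc22a4, chr11:54028105-54028354, minus strand, motif at -228 to -223: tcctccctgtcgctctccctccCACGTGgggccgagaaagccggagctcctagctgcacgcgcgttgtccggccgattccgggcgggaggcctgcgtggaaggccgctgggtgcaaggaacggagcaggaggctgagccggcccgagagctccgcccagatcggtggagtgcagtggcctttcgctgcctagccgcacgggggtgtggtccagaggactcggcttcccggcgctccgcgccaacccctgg
A match to these letters is a description and not evidence of binding.

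Which of the 4 tissues carried each member was asked first of the 48 control libraries. In kidney 29 members had a mean level of at least 1 TPM, in liver 21, in forebrain 18 and in cerebellum 17, and 33 of the 40 reached 1 TPM in some tissue. The remaining 7, Slc22a13, Slc22a16, Slc22a20, Slco1a5, Slco6b1, Slco6c1 and Slco6d1, stayed under it everywhere. Of these, Slc22a16 had 0 counts in all 48 control libraries, which allows up to 3 counts in a library, or 0.0513 to 0.121 CPM over all libraries, and Slc22a13 was the only other with more than 8 counts in any control library, at 5 to 20 counts in kidney. Taken as a share of all counts, the 40 genes made up 0.509% ± 0.036 (SD, n = 12) in control kidney, 0.315% ± 0.030 in control liver, 0.0858% ± 0.0070 in forebrain and 0.0873% ± 0.0046 in cerebellum.

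**Figure D1:**
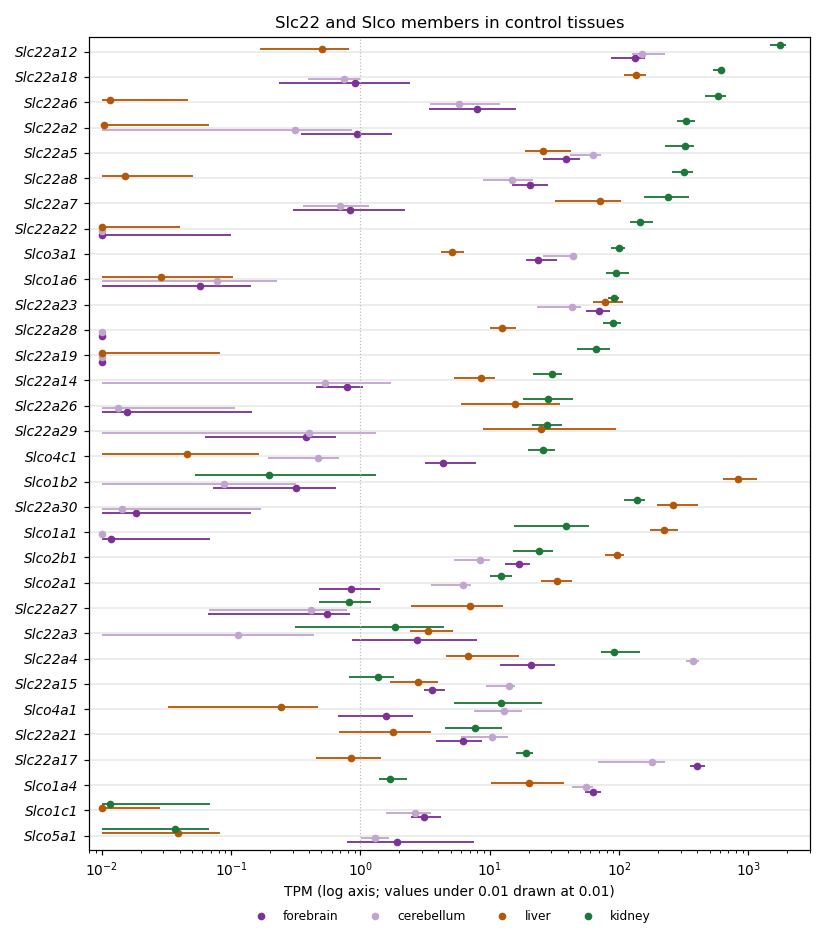
Mean TPM (points) and range over 12 control libraries (lines) in forebrain, cerebellum, liver and kidney, on a log axis, for 32 members that reached 1 TPM in at least 1 tissue; values under 0.01 are drawn at 0.01 and the dotted line marks 1 TPM. The kidney points lie highest in each row from Slc22a12 to Slco4c1, the liver points for Slco1b2, Slc22a30 and Slco1a1, and the brain points for Slc22a17 and Slco1c1.

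The kidney was the tissue of the organic anion exchangers. The highest level of any member in any tissue was that of Slc22a12, the urate carrier of the apical tubule membrane, at 1739 ± 169 TPM in kidney (SD, n = 12; lowest 1467, median 1702, highest 1962). Slc22a18 (609 ± 39.4 TPM) and the basolateral anion exchanger Slc22a6 (577.8 ± 60.9 TPM) lay within their SD of each other. The cation carrier of the basolateral tubule membrane, Slc22a2, reached 330.0 ± 28.4 TPM, the carnitine carrier Slc22a5 321 ± 47.8 TPM, the anion exchanger Slc22a8 319.7 ± 35.2 TPM and Slc22a7 238 ± 53.9 TPM. Slc22a6, Slc22a8, Slc22a2 and Slc22a12 were close to absent from control liver, at 0.0116, 0.0152, 0.0104 and 0.503 TPM on average.

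The liver was led by Slco1b2, which takes up bile acids and bilirubin from the blood, at 825 ± 162 TPM (SD, n = 12; lowest 633.1, median 763.2, highest 1157). Slc22a30 stood at 263 ± 57.6 TPM and Slco1a1, an uptake carrier of steroid conjugates, at 222 ± 37.7 TPM. Slco1b2 averaged 0.196 TPM in control kidney and no more than 0.315 TPM in the brain tissues.

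The brain tissues shared most of their members and differed sharply in a few. Slc22a17, known as a receptor for iron-binding lipocalin, was the leading member of forebrain at 403 ± 40.3 TPM and stood at 179 ± 42.9 TPM in cerebellum. Slc22a4, the carrier of the antioxidant ergothioneine, led the cerebellum at 370.2 ± 27.3 TPM and reached 20.8 ± 6.30 TPM in forebrain, with no overlap between 330.3 to 411.3 TPM in the one and 11.97 to 32.18 TPM in the other. Slco1a4, an efflux and uptake carrier of brain endothelium, was at 63.1 ± 4.63 TPM in forebrain and 55.0 ± 5.63 TPM in cerebellum. Slco1c1, which carries thyroxine across the same endothelium, was at 3.12 ± 0.475 and 2.63 ± 0.598 TPM and under 0.02 TPM on average in kidney and liver.

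Slc22a12 was also listed at 133 ± 21.9 TPM in forebrain and 149.7 ± 27.5 TPM in cerebellum, among the 3 leading members of both. Its exons overlap those of Nrxn2 on the opposite strand, a neuronal gene, and its counts were a median of 14.2% of the Nrxn2 counts in control forebrain (range 11.1% to 15.8%) and 15.3% in control cerebellum, against 1019% in control kidney. The highest cerebellar count, 3571, was in the CT8 replicate 1 control library, where it came to 31.1% of the Nrxn2 count, and the next highest cerebellar count was 2402. The counting was by strand, and the part of Nrxn2 in the brain values of Slc22a12 was not tested. Slc22a3, which carries monoamines, overlaps Plg in the same way, and its 112 to 270 counts in control liver stood beside 55135 to 91199 counts of Plg.

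A share was used to say how far a member kept to 1 of the 4 tissues: the squared mean TPM in a tissue over the sum of the squared means (SPM), which is 1 for a gene of a single tissue. Among the 33 members that reached 1 TPM, 21 had an SPM over 0.8, namely 13 in kidney, 5 in liver, 2 in cerebellum and 1 in forebrain. The kidney members were Slc22a2, Slc22a5, Slc22a6, Slc22a7, Slc22a8, Slc22a12, Slc22a14, Slc22a18, Slc22a19, Slc22a22, Slc22a28, Slco1a6 and Slco4c1; the liver members were Slc22a27, Slco1a1, Slco1b2, Slco2a1 and Slco2b1. In cerebellum they were Slc22a4 (0.94) and Slc22a15 (0.90), and in forebrain Slc22a17 (0.83). The share of all features over this limit was not computed, so these counts do not set the members apart from other genes. With TPM over genes of any length the count was 22, and with CPM or with TPM rescaled by TMM factors it was 23. Slc22a30 (0.78 in liver) passed 0.8 in liver under each of these units. Slco3a1 (0.796 in kidney) passed it in kidney with CPM (0.88) and with rescaled TPM (0.83). The most evenly spread member was Slc22a23, an orphan carrier, at 90.8 ± 5.45 TPM in kidney, 77.3 ± 13.5 in liver, 69.8 ± 7.59 in forebrain and 43.2 ± 7.02 in cerebellum.

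Of the 40 members, 25 lay in 6 genomic clusters in which neighbours were no more than 500000 bases apart, and members of 1 cluster had different tissues. The Slco1 cluster at chr6:141524368-142322981 held, in order, Slco1c1 (brain), Slco1b2 (liver), Slco1a4 (forebrain, cerebellum and, at 20.1 ± 7.52 TPM, liver), Slco1a1 (liver, and 38.5 ± 11.9 TPM in kidney), Slco1a6 (95.0 ± 10.7 TPM in kidney, at most 0.08 TPM on average elsewhere) and Slco1a5 (under 0.08 TPM on average everywhere). The largest cluster, chr19:7673061-8628299, ran from Slc22a19 through Slc22a26, Slc22a27, Slc22a28, Slc22a29 and Slc22a30 to Slc22a8 and Slc22a6, the kidney anion exchangers. In it Slc22a19 was at 66.0 ± 10.8 TPM in kidney and 0.0082 TPM in liver, Slc22a27 at 7.01 ± 3.03 TPM in liver and 0.813 ± 0.196 TPM in kidney, and Slc22a28 at 90.1 ± 9.22 TPM in kidney and 12.5 ± 1.97 TPM in liver.

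Several of these neighbours are near copies of each other. Of all 75-base words of its transcripts, Slc22a28 shared 44.8% with other genes, mostly Slc22a30, Slc22a13 shared 28.7%, Slc22a30 26.7%, Slc22a5 17.1% and Slc22a21 14.2% (with each other), and Slc22a27 16.3% and Slc22a29 15.8% (with each other). Reads in the shared stretches were removed by the mapping quality filter or could go to either gene, so the levels of these 7 genes are uncertain.

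Tissue differences were tested over all control libraries in edgeR (quasi-likelihood F-test), calling a feature at an adjusted p under 0.05 and a fold over 2. Of the 40 members 33 passed the filter on low counts, and the other 7 were not tested. Between liver and kidney 27 of the 33 were called, where 38.7% of the 23061 features tested were called. Liver was higher for 9 of them (15.6% of all features) and kidney for 18 (23.1% of all features). Under library sizes alone 25 were called, since the log2 difference of Slc22a3 went from 1.53 ± 0.32 to 0.99 and that of Slc22a30 from 1.51 ± 0.10 to 0.99, just under the fold. The background moved as well. Of all features, liver was then higher for 2404 and kidney for 7670, against 3594 and 5322 in the main fit. Their median log2 difference of liver minus kidney went from -0.05 to -0.57.

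Among the anion carriers higher in liver, Slco1a1 differed from kidney by 3.14 ± 0.15 on the log2 scale (adjusted p = 6.72e-20) and Slco2b1, a broad uptake carrier, by 2.64 ± 0.10 (adjusted p = 1.26e-26). Both were called at each of the 6 times taken alone. The carnitine carrier Slc22a5 was lower in liver by -3.04 ± 0.10 (adjusted p = 2.53e-30), and the anion carrier Slc22a7 by -1.14 ± 0.15 (adjusted p = 3.58e-09), the latter at 3 of the 6 times. Among the 6 members not called were Slc22a23, Slc22a26, Slc22a29, Slco1c1 and Slco5a1.

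Forebrain and cerebellum differed in 11 of the 33 members, against 32.3% of all features. Among those higher in cerebellum were Slc22a4 (log2 difference forebrain minus cerebellum -3.99 ± 0.15, adjusted p = 6.38e-27), Slco4a1, Slco2a1 (the prostaglandin carrier) and Slc22a15. Higher in forebrain were Slc22a3 (4.71 ± 0.43, adjusted p = 2.65e-13), Slco4c1, Slco1b2, Slc22a2, Slc22a17 and Slco2b1, of which Slco1b2 and Slc22a2 were under 1 TPM on average in both. Without the CT8 replicate 1 control cerebellum library 13 were called. When the brain tissues were set against liver and kidney, 27 of the 33 were called, against 62.1% of all features, 7 of them higher in brain and 20 lower. This contrast averages the logarithms of liver and kidney, so Slc22a8 and Slc22a12 counted as higher in brain because of their near absence from liver, although their kidney levels were above the brain levels.

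Whether sleep deprivation changed the members was tested in each tissue over 24 libraries with time of day in the model. In liver 7 of the 25 members tested were called, 5 higher and 2 lower in SD. Over all 19708 features 18.2% were called, 9.42% higher and 8.80% lower. The median log2 fold change over the members was 0.00 and over all features 0.01. The called members were the uptake carriers Slc22a7, Slco1a1, Slco1b2 and Slco2b1 and the orphan Slc22a23 on the higher side, and Slco3a1 and Slc22a27 on the lower side. Under library sizes alone 3 were higher and 4 lower: Slco2b1 and Slc22a23 were no longer called, while Slc22a21 (log2 fold change -0.63, adjusted p = 0.023) and Slc22a17 (-0.58, adjusted p = 0.047) were called lower. In whole tissue, fewer cells of a type and less RNA per cell cannot be told apart.

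Slc22a7 showed the largest rise. In liver its 12 control libraries ran from 32.0 to 103.1 TPM with a median of 66.0, and its 12 SD libraries from 66.1 to 151.0 TPM with a median of 100.5. The groups overlapped, 5 SD libraries lying above every control library and 6 control libraries below every SD library. The log2 fold change was 0.69 ± 0.14 (SE, adjusted p = 0.0011), with a higher SD mean at 6 of 6 times.

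Slco1a1 ran from 173 to 284.9 TPM in control liver (median 224) and from 211.1 to 354.2 TPM in SD liver (median 264). It was higher in SD by 0.44 ± 0.08 (adjusted p = 0.000646) and at 6 of 6 times in CPM, with 5 control libraries below every SD library. Slco1b2, its neighbour in the chr6 cluster, ran from 633.1 to 1157 TPM in CON (median 763) and from 698.5 to 1388 TPM in SD (median 863). It rose by 0.37 ± 0.06 (adjusted p = 0.000209), at 6 of 6 times, and 4 SD libraries lay above every control library. Both are known as sinusoidal uptake carriers that work without sodium.

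Slco2b1 ran from 78.2 to 109.8 TPM in CON (median 97.5) and from 87.6 to 114.4 TPM in SD (median 107), with a log2 fold change of 0.26 ± 0.06 (adjusted p = 0.00213). Slc22a23 ran from 62.6 to 107.4 TPM in CON and from 66.8 to 109.8 TPM in SD, so that the conditions overlapped almost fully, and its log2 fold change was 0.16 ± 0.04 (adjusted p = 0.00378). Both calls depended on the scaling. With library sizes alone in place of TMM factors the median of all features in liver moved from 0.01 to -0.13, and Slco2b1 came to 0.13 (adjusted p = 0.0667) and Slc22a23 to 0.03 (adjusted p = 0.639).

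On the lower side, Slco3a1, which carries prostaglandins and is found in many cell types, had the most SD libraries outside the control range among the 7 called members. Its 12 control libraries ran from 4.23 to 6.32 TPM (median 4.87) and its 12 SD libraries from 2.81 to 6.23 TPM (median 3.41), and 11 of the 12 SD libraries were below every control library. The SD library at 6.23 TPM was CT16 replicate 1. The log2 fold change was -0.37 ± 0.06 (adjusted p = 0.000386), with no time at which the SD mean was higher.

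Slc22a27, of the chr19 cluster, ran from 2.46 to 12.65 TPM in CON (median 7.46) and from 1.68 to 6.48 TPM in SD (median 2.53). Of the control libraries 8 lay above every SD library, and the SD mean was higher at 1 of the 6 times. The log2 fold change was -0.99 ± 0.27 (adjusted p = 0.0119), and the gene is among those that share transcript sequence with a neighbour, Slc22a29. All 7 calls held when any 1 of the 24 liver libraries was left out.

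**Figure D2:**
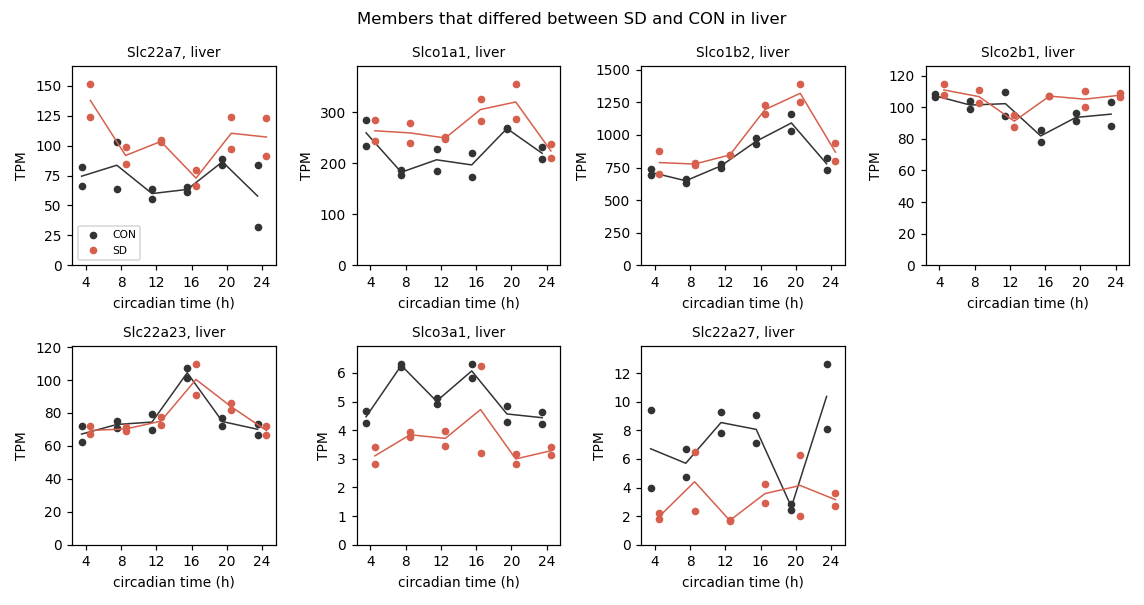
TPM in liver against circadian time for the 7 members called between SD and CON; each point is 1 library, the lines join the means of 2 libraries, and CON and SD points are set slightly apart. SD points lie above CON at most times for Slc22a7, Slco1a1 and Slco1b2 and below CON for Slco3a1 except for 1 library at CT16.

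Next to the threshold stood Slc22a21, a carnitine carrier, at -0.50 ± 0.18 (adjusted p = 0.0501), Slc22a3 at 0.29 ± 0.11 (adjusted p = 0.0608) and Slco1a4 at 0.34 ± 0.14 (adjusted p = 0.0898). Slc22a30, among the leading members of liver, had a log2 fold change of -0.06 ± 0.09 (adjusted p = 0.676). Among the members at 1 TPM or more, Slc22a29 varied most between control livers relative to its mean, from 8.80 to 95.3 TPM, the highest value being that of CT16 replicate 2. The 18 members that were not called had log2 fold changes between -0.58 and 0.34.

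Marker genes moved in the same liver libraries. All 4 leukocyte genes tested were lower in SD, their summed level running from 650.5 to 1617 TPM in CON and from 314.9 to 683.2 TPM in SD, and 3 of 5 hepatocyte genes tested were higher (1 under library sizes alone), the list summing to between 102900 and 131900 TPM in CON and between 109700 and 127400 TPM in SD. Their part in the changes of the members was not tested.

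In kidney, with groups taken from the titles, edgeR called 0 of the 32 members tested, where 2.30% of 21528 features were called, 0.181% higher and 2.12% lower. Of the members 4 had an unadjusted p under 0.05, and DESeq2 also called 0. The 3 smallest p-values were those of Slc22a26 (log2 fold change 0.37 ± 0.13, adjusted p = 0.183), Slco4c1 (0.19 ± 0.07, adjusted p = 0.229) and Slc22a29 (0.19 ± 0.08, adjusted p = 0.272). Of the leading kidney members, Slc22a12 stood at -0.00 ± 0.06 and Slc22a18 at -0.04 ± 0.05. Control kidney ran from 1467 to 1962 TPM of Slc22a12 and SD kidney from 1399 to 2189 TPM. Among the 29 members at 1 TPM or more, log2 fold changes lay between -0.20 and 0.37. In the same kidneys 3 of 4 leukocyte genes were lower in SD.

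**Figure D3:**
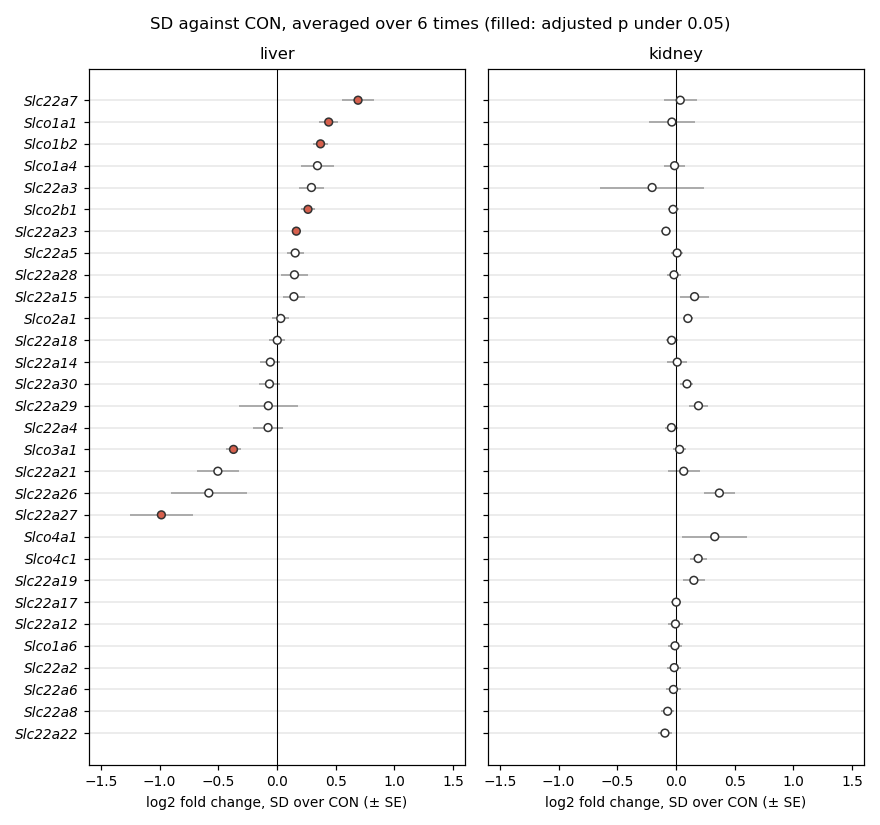
Log2 fold change of SD over CON with its SE, averaged over 6 times, for 20 members at 1 TPM or more in control liver (left) and 28 in kidney (right); filled points passed an adjusted p of 0.05. In liver 7 points are filled, from Slc22a27 at -0.99 to Slc22a7 at 0.69, and in kidney none is.

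In forebrain edgeR and DESeq2 called 0 of the members, 26 of which edgeR tested (0.0303% of 23078 features called; 3 members at an unadjusted p under 0.05). The smallest p-values were those of Slco3a1 (-0.18 ± 0.07), Slco2b1 (-0.11 ± 0.05) and Slc22a6 (-0.43 ± 0.19), each at an adjusted p of 0.772. The leading members Slc22a17, Slc22a12 and Slc22a23 stood at -0.10 ± 0.05, 0.02 ± 0.10 and 0.04 ± 0.06. In cerebellum edgeR and DESeq2 likewise called 0 of the members, 26 of which edgeR tested (0% of 22218 features called; 1 member at an unadjusted p under 0.05), with Slco4a1, a thyroid hormone carrier, at 0.26 ± 0.07, Slco2b1 at -0.17 ± 0.09 and Slc22a2 at 0.62 ± 0.38, each at an adjusted p of 0.907. The leading members Slc22a4, Slc22a17 and Slc22a12 stood at -0.06 ± 0.06, 0.12 ± 0.11 and -0.13 ± 0.10. Choroid plexus markers, which bear on brain members such as Slc22a8 and Slc22a6, summed to between 39.7 and 6593 TPM over control cerebellum libraries (median 80.4) and between 48.4 and 11090 TPM over SD cerebellum libraries (median 2519). A single gene of the list had a mean of 1526 TPM in CON and the highest in SD was 2868 TPM, so such sums follow few genes. Of the 7 choroid genes tested in cerebellum 0 were called between SD and CON. The part of these markers in the brain values was not tested.

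Taken at single times, with 2 libraries against 2, edgeR called 0 of 150 member-by-time tests in liver, 0 of 192 in kidney and 0 of 156 in forebrain (28, 19 and 12 at an unadjusted p under 0.05), and DESeq2 called 6, 2 and 2. The shares of all features given for single times are those of edgeR. No such share is given for DESeq2, so its counts have no background here. Over all features the share called at a single time reached 0.406% in liver, at CT8, and 0.302% in kidney, at CT24. In forebrain 0.00433% of all features were called at CT16, all of them higher, and 2.28% at CT20 (1.85% higher). In cerebellum 2 were called, both at CT8, when 10.3% of all features were called (9.73% lower): Slc22a12 at -0.74 ± 0.20 (144 and 82.8 CPM in CON, 72.9 and 71.7 CPM in SD) and Slc22a2 at 3.49 ± 0.95, the latter from under 1 CPM in all 4 libraries. Without the CT8 replicate 1 control library these came to -0.19 and 2.70 and were no longer called. In that fit Slc22a17 and Slco1a4, not called in the main fit, were called at CT4. They were also called at CT4 when CT8 replicate 2 of the controls was left out instead. When the 6 times were tested together in liver, 4 members were called, Slco1a1 (adjusted p = 0.0183), Slc22a27 (0.019), Slco3a1 (0.0388) and Slc22a7 (0.0499), against 3.56% of all features. Slc22a7 was no longer called under library sizes alone (adjusted p = 0.0786) or with the replicate block (adjusted p = 0.0612), and the other 3 were. In the other 3 tissues edgeR called 0 (kidney 7, forebrain 3 and cerebellum 2 at an unadjusted p under 0.05).

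Liver and kidney were then compared in their response, with the kidney groups taken from the titles. The difference between the SD effects was called for 4 of 33 members tested, against 6.49% of 22870 features. Slco3a1 fell in liver and stood at 0.03 ± 0.05 in kidney, a difference of -0.41 ± 0.09 (adjusted p = 0.00345). Slc22a27 differed by -1.28 ± 0.35 (adjusted p = 0.0216), Slco2b1 by 0.28 ± 0.07 (adjusted p = 0.0149) and Slc22a23 by 0.24 ± 0.06 (adjusted p = 0.0108). The last 2 were not called with library sizes alone (0.13 and 0.09). That setting also called 4 members, so it added calls that the main fit did not make. For Slc22a7 the difference was 0.64 ± 0.21 (adjusted p = 0.053), so the liver rise of this gene was not shown to differ from its kidney value of 0.04 ± 0.14.

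Genes that work with these carriers gave a background for the liver changes. Over all features tested in liver 9.42% were higher and 8.80% lower in SD, with a median log2 fold change of 0.01. Of 20 partner transporters tested in liver, among them export pumps of the canalicular and sinusoidal membranes, 6 were higher and 4 lower in SD, with a median log2 fold change of 0.02. The sodium-coupled bile acid carrier Slc10a1 rose by 0.42 ± 0.07 (adjusted p = 0.000163), whereas the basolateral export pumps Abcc1 and Abcc4 fell by 0.46 ± 0.08 (adjusted p = 0.000359) and 0.41 ± 0.09 (adjusted p = 0.00305) on the log2 scale. Related genes of the list went the other way. Slc10a2, also a sodium-coupled bile acid carrier, stood at -0.33 ± 0.11 (adjusted p = 0.0439), and Abcc6 at 0.21 ± 0.05 (adjusted p = 0.00355). Of 15 transporter regulators 8 were higher and 1 lower, with a median of 0.17. Of 10 genes of carnitine and fatty acid oxidation 9 were higher, led by the carnitine acyltransferase Cpt1a at 0.38 ± 0.07 (adjusted p = 0.000561). The carnitine carrier Slc22a5 stood at 0.15 ± 0.07 (adjusted p = 0.151). The first 2 of these lists turned with the scaling: under library sizes alone 1 partner was higher and 5 lower, and 0 regulators were higher and 2 lower. Of the carnitine and fatty acid oxidation list 8 genes stayed higher. In kidney, forebrain and cerebellum edgeR called 0 genes of the 3 lists.

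Rhythm over the day was tested separately for CON and SD in each tissue (12 libraries each) with cosine and sine terms of 24 h. For SD such a term cannot be told apart from a course over the hours since deprivation. In control liver 2 of 24 members tested were called (9.13% of features) and in SD liver 4 of 25 (12.9%). In control kidney 3 of 31 were called (4.10%) and in SD kidney 1 of 32 (1.94%). In forebrain edgeR called 0 of 26 in CON and 0 of 26 in SD (9 and 2 at an unadjusted p under 0.05, where 0.103% and 0.00447% of features were called), and in cerebellum 0 of 21 and 0 of 25 (3 and 5, where 0.00465% and 0.0981% were called). DESeq2 called 6 and 0 in forebrain and 0 and 0 in cerebellum, and its share over all features is not given.

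In liver the highest means of Slco1b2 were at CT16 and CT20 in both conditions. Its control means were 714 TPM at CT4, 649 at CT8, 763 at CT12, 952 at CT16, 1092 at CT20 and 779 at CT24, a fitted peak at CT19.9 with a peak to trough difference of 0.58 on the log2 scale (adjusted p = 0.0377). In SD they were 788, 777, 846, 1195, 1320 and 869 TPM at the same times, with a peak at CT18.9 and a difference of 0.63 (adjusted p = 0.0298). The control call was lost in 8 of 12 fits that left out a library and the SD call in 9 of 12.

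Slco2a1, which takes up prostaglandins for breakdown, was called in 3 of the 4 series of the organs. In control liver it averaged 36.0 TPM at CT4, 37.7 at CT8, 34.7 at CT12, 25.98 at CT16, 28.05 at CT20 and 35.9 at CT24, peaking at CT5.08 (peak to trough 0.69, adjusted p = 0.0395), and in SD liver it peaked at CT6.74 (0.77, adjusted p = 0.00737). In control kidney it ran the other way over the day, at 10.4, 10.5, 13.5, 13.8, 14.1 and 10.9 TPM, peaking at CT16.7 (0.53, adjusted p = 0.000585). In SD kidney the means were 13.2, 11.7, 12.03, 14.2, 13.1 and 12.9 TPM and the rhythm was not called. The control kidney and SD liver calls held in all 12 fits that left out a library, and the control liver call was lost in 7 of 12. The difference in phase between the organs was not tested.

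The carnitine carrier Slc22a5 had its highest means at CT16 in both organs. In SD liver it averaged 19.5, 19.4, 21.8, 43.4, 32.5 and 22.1 TPM from CT4 to CT24, with a peak to trough difference of 0.92 (peak at CT17.7, adjusted p = 0.0041), and control liver, not called, averaged 22.9, 19.5, 22.1, 37.6, 28.5 and 23.98 TPM. In control kidney it averaged 329, 241, 314, 376, 368 and 298 TPM (peak at CT18.9, difference 0.49, adjusted p = 0.0388). Its neighbour on chromosome 11, Slc22a4, was called in control kidney only just (peak at CT16.8, difference 0.54, adjusted p = 0.0442), and the kidney calls of Slc22a5 and Slc22a4 were lost in 8 and 10 of 12 fits that left out a library.

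Slc22a15, of unsettled substrates, peaked at CT7.74 in SD liver (difference 0.87, adjusted p = 0.00347), where it averaged 3.90 TPM at CT8 and 2.22 at CT20. Slco2b1 peaked at CT20.9 in SD kidney (difference 0.76, adjusted p = 0.00808), from 15.9 TPM at CT12 to 28.6 at CT16; its control kidney means also ran from 15.7 TPM at CT8 to 29.6 at CT4, without a call. Both calls held in all 12 fits that left out a library.

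**Figure D4:**
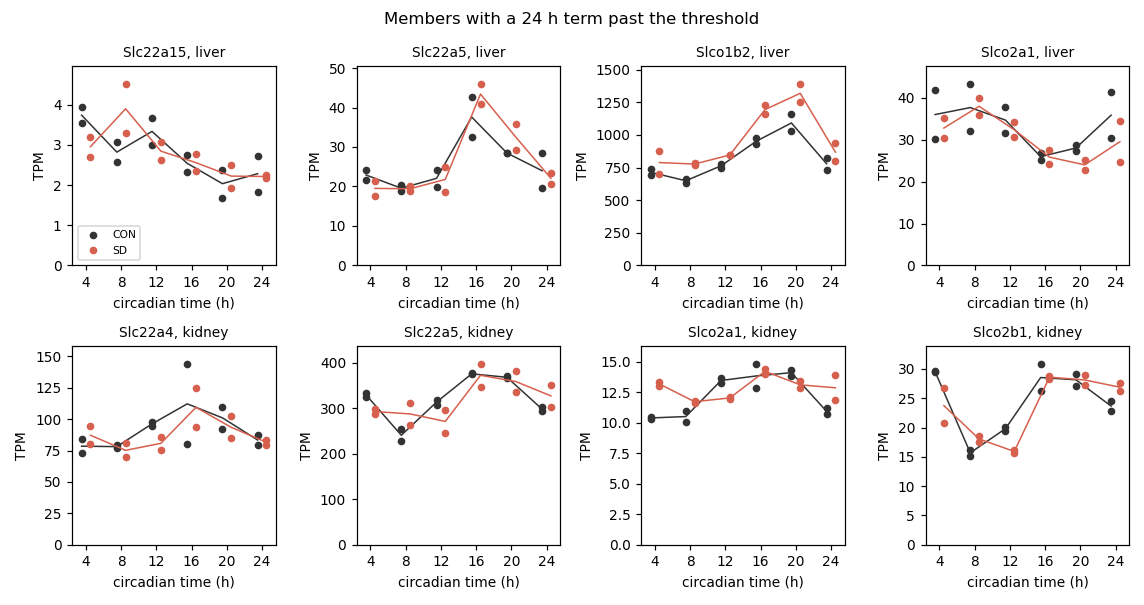
TPM against circadian time for the 8 pairs of member and organ with a 24 h term past an adjusted p of 0.05 in CON or SD; each point is 1 library, the lines join the means of 2 libraries, and CON and SD points are set slightly apart. Slc22a5 is highest at CT16 in liver and kidney, and Slco2a1 is highest at CT4 to CT12 and CT24 in control liver and at CT12 to CT20 in control kidney.

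JTK_CYCLE, the rank test used in the study, called fewer features. Over TPM it called 1 of 24 members in control liver (0.182% of 18113 features), Slc22a14, with a peak at CT16 and an adjusted p of 0.0317, at 6.73 and 5.33 TPM in the 2 libraries of CT4 and 10.9 and 10.5 TPM in those of CT16. It called 0 of the members in the other 7 series (0 to 5 at an unadjusted p under 0.05), the background being 1.79% of features in SD liver, 0.128% in control kidney and 0% in the other 5. A difference in rhythm between SD and CON was called by edgeR for 0 members in liver, kidney, forebrain and cerebellum, with 2, 1, 0 and 3 at an unadjusted p under 0.05 and 0% of features called in each tissue. The smallest p-values were those of Slc22a28 in liver, Slco2a1 in kidney, Slco4a1 in forebrain and Slc22a23 in cerebellum, at adjusted p-values of 0.9997, 0.9991, 0.82 and 0.454.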

How the data were processed

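Total RNA was sequenced by the authors in 96 libraries of forebrain, cerebellum, liver and kidney (12 CON and 12 SD each), with a stranded total RNA protocol. The authors deposited raw counts for each gene. Per the study's methods, reads were trimmed with Trim Galore, aligned to GRCm38 with HISAT2, kept at high mapping quality with Samtools and counted by strand with featureCounts. The quality filter removes reads that map to several places, so near-identical genes are undercounted.

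Groups were taken from the titles. Counts were tested here with edgeR 4.0.16 (R 4.3.3; quasi-likelihood F-test, TMM factors, filterByExpr, Benjamini-Hochberg over all features), with time as a factor, by time, with 24 h cosine and sine terms, and across tissues; SE is the log2 fold change over the root of F. DESeq2 1.42.0 was the other tool. JTK_CYCLE (period 24 h, 6 phases) ran on TPM. TPM was computed from the counts with exon-union lengths of GENCODE M21, leaving out of the sum genes with under 200 bases of exon, since Gm23935, of 57 bases, took up to 64.8% of a library's TPM; this was decided after seeing the data. Scripts were tested on simulated data.

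Libraries held 24760295 to 58486579 counts, so 3 counts correspond to 0.0513 to 0.121 CPM; such limits cover counting error only. Numbered loci without a gene identifier took 0.084% to 1.06% of counts and stayed in the library sizes. No 2 libraries were identical. The members and lists were chosen with earlier results of these data known. Named were members with a control mean of 1 TPM or more for tissue levels, every member past an adjusted p of 0.05 (where none passed, the 3 smallest p-values), the 3 leading members of each tissue, and at most 5 partner genes. Slc10a2 and Abcc6 were added outside this rule. Some genes that this rule names are not reported here. Same-numbered libraries of CON and SD did not deviate together throughout (correlations from -0.32 to 0.40 over the 4 tissues, the highest in forebrain), and replicate numbers were not treated as pairs in the main fits. Same-numbered control libraries of liver and kidney correlated at 0.035 to 0.16. The labels do not say which organs came from 1 mouse, and the main fits treated organs as independent. Alternatives were library sizes alone, no filter, DESeq2, a replicate block, leaving out each library and other level units.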

Additional observations from a re-analysis of the deposited data

Results flagged for a closer look

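The effect of SD differed between liver and kidney, by the interaction test of edgeR, for 4 members. Slco3a1 differed by -0.41 on the log2 scale (liver minus kidney), being -0.37 ± 0.06 in liver and 0.03 ± 0.05 in kidney. Slc22a27 differed by -1.28, being -0.99 ± 0.27 in liver and 0.29 ± 0.17 in kidney. Slco2b1 differed by 0.28, being 0.26 ± 0.06 in liver and -0.02 ± 0.05 in kidney. Slc22a23 differed by 0.24, being 0.16 ± 0.04 in liver and -0.09 ± 0.05 in kidney. Slco3a1 and Slc22a27 were also called under library sizes alone, a replicate block and DESeq2, and Slco2b1 and Slc22a23 under all of these but library sizes alone. Groups had 2 or 12 libraries, so single libraries were not tested as outliers.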

How the results depend on the processing

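Counts below are of members called, without the share over all features under the same setting. In liver SD against CON averaged over time gave 7, and 7 to 9 when a library was left out; the count in kidney, 0, became 3 without the filter. At single times (0 in liver, kidney and forebrain, 2 in cerebellum) no filter gave 20 in liver, 23 in kidney, 2 in forebrain and 4 in cerebellum, DESeq2 gave 6, 2, 2 and 5, and leaving out a library gave 0 to 7, 0 to 0, 0 to 1 and 0 to 11; the 11 came without the CT8 replicate 2 control library of cerebellum, 0 of CT8 remained without its replicate 1, and the 7 came without the CT16 replicate 1 SD library of liver. For 24 h terms, control liver (2) gave 4 with library sizes alone, 12 without filter, 0 with the replicate block, 8 with DESeq2 and 0 to 3 with a library left out. SD liver (4) gave 5 with library sizes alone, 11 without filter, 7 with DESeq2 and 3 to 7 with a library left out. Control kidney (3) gave 2 with library sizes alone, 2 with the replicate block, 14 without filter, 7 with DESeq2 and 1 to 6 with a library left out. SD kidney (1) gave 4 without filter and 3 with DESeq2, control forebrain (0) gave 6 with DESeq2 and SD cerebellum (0) gave 3 without filter. Of the member calls averaged over time, for 24 h terms and between organs, 14 held under library sizes alone and 7 did not, 24 h calls among them. The JTK_CYCLE count of control liver, 1, became 0 with TMM-scaled CPM, with TPM over genes of any length (added after seeing the data) and with any 1 of the 12 libraries left out (0 to 0). The rhythm difference in liver, 0, became 1 without filter. Between forebrain and cerebellum 11 became 21 with no minimum fold. The liver against kidney SD effects, 4, became 12 without filter. Tested over the 6 times together, the liver count of 4 became 3 with library sizes alone, 3 with the replicate block and 10 without filter, and the kidney count of 0 became 10 without filter. The counts without filter say little about the filter. In the 54 filtered fits that were looked at, edgeR weighted its variance trend by a median of 2.69 to 6.43 prior degrees of freedom among features over 1 log2 CPM, whereas without the filter this weight was infinite in the liver fits averaged over time, by time and with 24 h terms, in the kidney and cerebellum fits by time, in the 24 h fit of SD cerebellum and in the liver against kidney fit, so that a gene's own spread between libraries no longer entered its test. A robust prior without filter, chosen after seeing the data, left those weights infinite and gave counts as high there (20 in liver and 23 in kidney at single times); elsewhere it gave 1 in forebrain at single times, 5 for 24 h terms in control kidney and 3 in SD kidney. Calls without filter are therefore used as support for no result. The causes of the other shifts were not tested. The replicate block ended the calls of Slco1b2 and Slco2a1 in control liver (adjusted p = 0.0516 and 0.0503) and of Slc22a5 in control kidney (0.054), and that of Slc22a7 in liver over the 6 times together (0.0612). No called member changed direction. Under library sizes alone members that had not been called did so: Slc22a23 (0.36 to -0.16, adjusted p = 0.025) and Slc22a29 (0.22 to -0.30) between liver and kidney, Slc22a29 between forebrain and cerebellum (0.11 to -0.03) and Slco3a1 between brain regions and organs (-0.37 to 0.03). Depth limits the members at a few counts per library, for which a change was not detectable.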
